A study of Homo sapiens with 6 samples.

Results

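Cadherins are transmembrane proteins that join neighbouring epithelial cells, and inside the cell their tails are held by catenins, which link the junction to actin. Beta-catenin also acts in the nucleus as a partner of TCF transcription factors. PECAM1 and ESAM are immunoglobulin-type adhesion molecules best known from endothelium, platelets and leukocytes, and CDH5 is the cadherin of endothelial junctions. In mammary epithelium E-cadherin (CDH1) marks luminal and P-cadherin (CDH3) basal cells.

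The 9 genes CDH1, CDH2, CDH3, CDH5, PECAM1, ESAM, CTNNA1, CTNNB1 and CTNND1 were followed among the 26484 gene symbols of the count tables. They were taken by symbol, with their values on soft and stiff gels already known: PECAM1 and CDH5 had passed a test of stiffness that took the replicate number into account, and this brought them in beside the epithelial junction genes. Their differences between gels are therefore a description, and no test is read from them.

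RNA was sequenced from MCF10CA1a cells, a tumour-forming derivative of the MCF10A breast epithelial line. One group of 3 libraries came from dishes coated with a gel of 8000 Pa and the other group of 3 from a gel of 500 Pa. Both gels were coated with Matrigel low in growth factors (0.14 mg/ml). Cells got fresh medium on day 4, and TRIzol was used on day 5 for cytosolic RNA. All libraries come from 1 cell line. The labels number the biological replicates 1 to 3 on each gel but do not say what sets the replicates apart, so p-values measure the spread between these samples.

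Libraries held 8305601 to 18779742 counts. Levels are CPM, counts divided by the TMM-scaled library size, and a log2 fold change is 8000 Pa over 500 Pa from edgeR, with its standard error (SE). In edgeR's quasi-likelihood test of stiffness alone, 0 of 11517 tested genes passed a false discovery rate of 0.05, with 282 at an unadjusted p under 0.05, and DESeq2 called 7. With the replicate number as a block edgeR called 61 genes. Keratins KRT8 and KRT18 stood at 9049 ± 3220 and 4235 ± 1430 CPM at 8000 Pa. At 500 Pa they stood at 11230 ± 3600 and 5341 ± 1730 CPM (SD, n = 3 each), so the RNA had these epithelial keratins. Not every epithelial marker was present at a level to test: of a list of 15, CLDN3 and OCLN had too few counts.

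All 9 genes had enough counts to be tested. For 3 of them, CDH1, CDH5 and PECAM1, every 8000 Pa library was above every 500 Pa library, against 4.02% of all tested genes. No member lay wholly lower at 8000 Pa, against 2.85% of tested genes, and for the other 6 the groups overlapped. With the replicate block 2 of the 9 were called higher, against 0.26% of tested genes. PECAM1 and CDH5 are in both counts and were chosen for this difference. CDH1 was taken with its values known. Nothing is read from either count. In bulk RNA, fewer cells with a transcript and less of it per cell cannot be told apart.

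**Figure D1:**
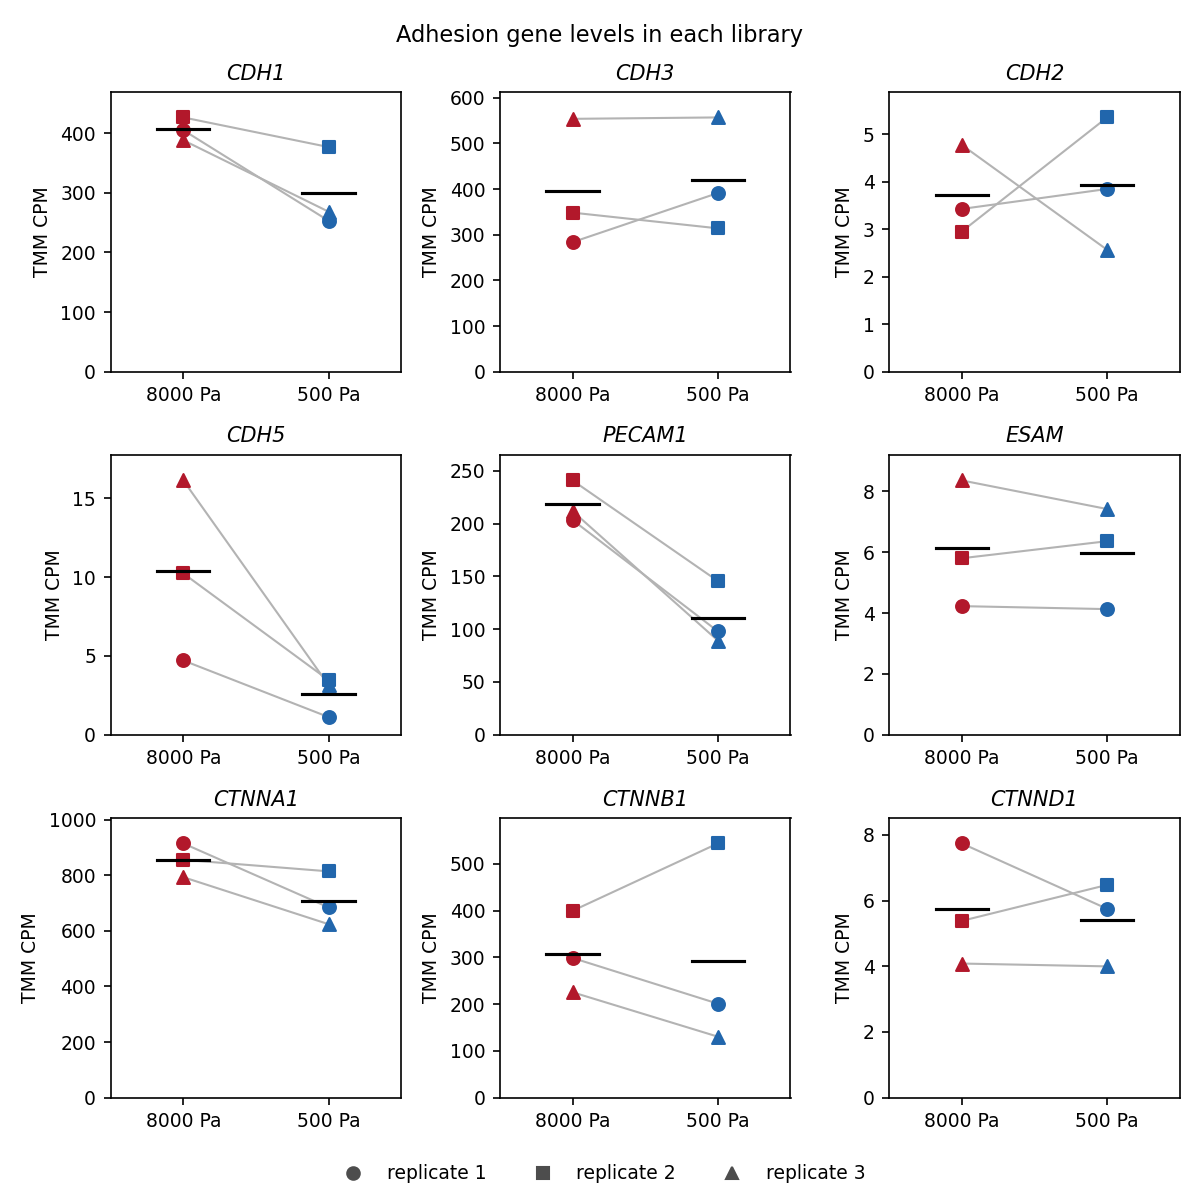
TMM-scaled CPM of the 9 genes on 8000 Pa and 500 Pa gels. Each point is 1 library, its shape gives the replicate number, grey lines join libraries of the same number and black bars are group means. CDH1, CDH5 and PECAM1 have all 3 libraries at 8000 Pa above the 3 at 500 Pa, and CTNNB1 reaches its highest value, 544 CPM, in 500 Pa replicate 2.

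Of the classical cadherins, CDH1, which holds epithelial cells together, stood at 405, 426 and 388 CPM in the 8000 Pa libraries 1 to 3, against 253, 377 and 268 CPM in the 500 Pa libraries 1 to 3. The 8000 Pa libraries lay close together and the 500 Pa libraries were spread, with replicate 2 nearest to the stiff gels. The log2 fold change was 0.44 (SE 0.25), and the pairs of equal number gave 0.678, 0.179 and 0.532.

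CDH3, the placental or P-cadherin of basal mammary cells, did not follow CDH1. Its levels were 284, 348 and 554 CPM at 8000 Pa, against 391, 314 and 557 CPM at 500 Pa. Replicate 3 was the highest library on both gels, and the groups overlapped almost wholly. The log2 fold change was -0.09 (SE 0.31). Antisense genes not in the tables cover 5.62% of the exon bases of CDH1 and 11.1% of those of CDH3, and whether counting used strand is not stated. The 2 genes are neighbours on chromosome 16, read in the same direction, with CDH3 at 68636189 to 68722616 and CDH1 at 68737225 to 68835548 (GRCh38, GENCODE 29), 14.6 kb apart.

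CDH2, the N-cadherin of nerve, heart and mesenchymal cells, was scarce. It had 43, 28 and 48 counts at 8000 Pa, against 69, 48 and 18 counts at 500 Pa, which is 3.43, 2.95 and 4.78 CPM against 3.85, 5.36 and 2.57 CPM. The pairs differed in sign, at -0.147, -0.762 and 0.782, and the log2 fold change was -0.08 (SE 0.45). Mesenchymal vimentin (VIM) was at 27.1 ± 9.83 CPM at 8000 Pa and 30.1 ± 1.91 CPM at 500 Pa (SD, n = 3 each).

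Of the genes better known from vessels, PECAM1 had the most even difference. It stood at 203, 241 and 212 CPM on the stiff gels, against 97.9, 145.5 and 89.1 CPM on the soft gels. Its lowest 8000 Pa library was well above its highest 500 Pa library, and the pairs gave log2 ratios of 1.05, 0.725 and 1.24. The log2 fold change was 0.98 (SE 0.27) with stiffness alone and 1.01 (SE 0.23) with the replicate block. PECAM1 lies on the minus strand of chromosome 17 at 64319415 to 64413776, and in this annotation no other gene's exons overlap its own.

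CDH5, or VE-cadherin, had the highest fold change of the 9 at a low level. It had 59, 97 and 162 counts at 8000 Pa, against 20, 31 and 22 counts at 500 Pa, or 4.71, 10.2 and 16.1 CPM against 1.12, 3.46 and 3.14 CPM. Replicate 1 was the lowest library on both gels, and the stiff libraries differed from each other more than the soft ones did. The log2 fold change was 2.05 (SE 0.55), with 1.69, 1.44 and 2.19 in the pairs. CDH5 is also on chromosome 16, at 66366622 to 66404786, some 2231 kb from CDH3.

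ESAM, an immunoglobulin-type molecule of endothelial junctions and platelets, did not share that difference. It stood at 4.23, 5.80 and 8.36 CPM at 8000 Pa, against 4.13, 6.36 and 7.42 CPM at 500 Pa. The order of the replicates was the same on both gels, and the groups overlapped. Its log2 fold change was 0.05 (SE 0.42).

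**Figure D2:**
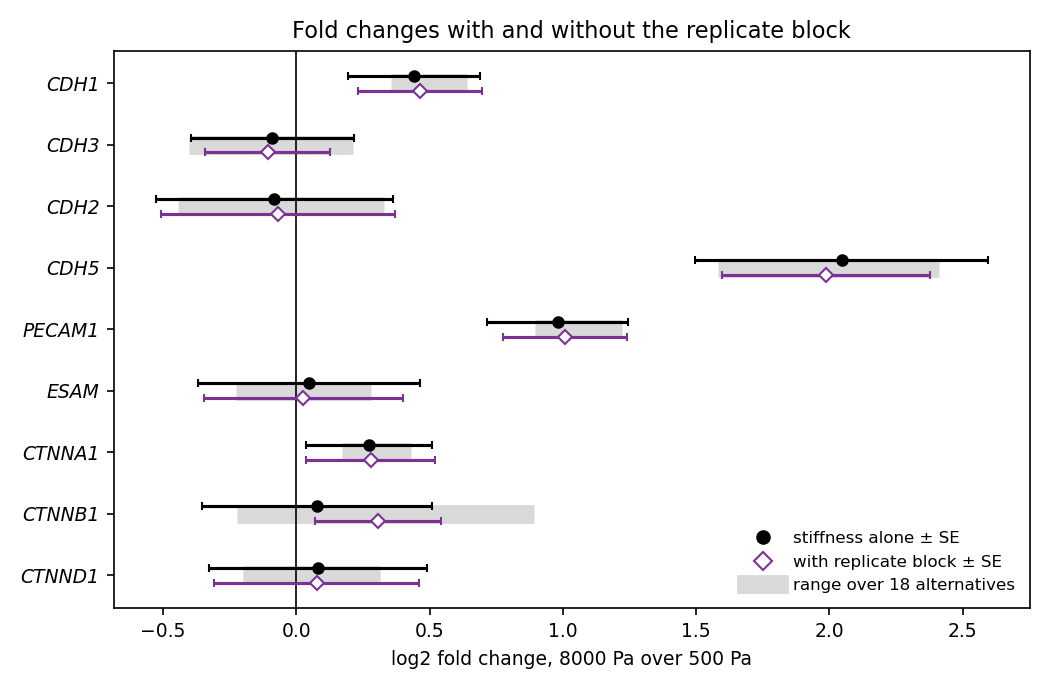
Log2 fold change of 8000 Pa over 500 Pa for the 9 genes, from edgeR with stiffness alone (filled) and with the replicate block (open), with bars of 1 SE. Grey bands span 18 alternative settings. PECAM1 (0.90 to 1.22), CDH5 (1.58 to 2.41), CDH1 (0.35 to 0.64) and CTNNA1 (0.17 to 0.43) stay above 0 in the band, and the other 5 bands cross 0. PECAM1 and CDH5 were chosen for their difference between gels, so their bands are a description.

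The 8 endothelial genes set as defining were at or near 0 beside PECAM1 and CDH5. They were taken from a list written with earlier results of these data known. Of the 8, 5 had 0 counts in all 6 libraries: TEK, TIE1, CLDN5, ERG and EMCN. A count of 0 allows up to 0.167 to 0.428 CPM in a library, taking 3 counts as the limit and covering counting error only. VWF, the clotting factor stored by endothelium, had 0, 0 and 4 counts at 8000 Pa, against 0, 0 and 3 at 500 Pa. KDR, a receptor of vascular growth factor, had 2, 4 and 2 counts at 8000 Pa, against 0, 1 and 0 at 500 Pa, and ROBO4 had counts in 500 Pa replicate 1 alone (4 counts).

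Summed over the 8, the level was 0.160 to 0.597 CPM in the 8000 Pa libraries and 0.112 to 0.428 CPM in the 500 Pa libraries, far under that of PECAM1. Of the whole list of 33 endothelial genes, 21 had 0 counts throughout and 3 could be tested. Its summed level was 43.2 to 100.7 CPM at 8000 Pa, against 66.7 to 103 CPM at 500 Pa. Most of it was ENG, a TGF-beta co-receptor also found outside vessels, at 49.4 ± 22.8 against 46.9 ± 16.2 CPM, and EGFL7, a secreted factor, at 19.2 ± 7.05 against 27.0 ± 7.53 CPM. The third was ETV2, an ETS factor, at 4.55 ± 1.12 against 7.42 ± 3.15 CPM (SD, n = 3 each). These 3 were not among the 8 defining genes, and the list was written with earlier results of these data known. PROX1, also on the list but outside the 8, had 13, 0 and 14 counts at 8000 Pa, against 0, 1 and 0 at 500 Pa.

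Of leukocyte and platelet genes, 4 were set as defining, from a list written with earlier results of these data known. Of these PTPRC, SPI1 and PF4 had 0 counts in every library. The other, ITGA2B, a platelet integrin chain, had 1, 4 and 6 counts at 8000 Pa, against 12, 6 and 5 at 500 Pa. Of the whole list of 23, 11 had 0 counts throughout and 3 could be tested. Its summed level was 27.5 to 48.5 CPM at 8000 Pa, against 25.6 to 51.95 CPM at 500 Pa. It was mostly CD68 (18.9 ± 5.76 against 22.5 ± 11.4 CPM), CD14 (13.6 ± 6.33 against 8.97 ± 2.27 CPM) and LYZ (4.38 ± 1.81 against 3.19 ± 0.970 CPM; SD, n = 3 each). None of the 3 was called (0 of 3), with or without the block, against 0.53% of all tested genes with it.

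**Figure D3:**
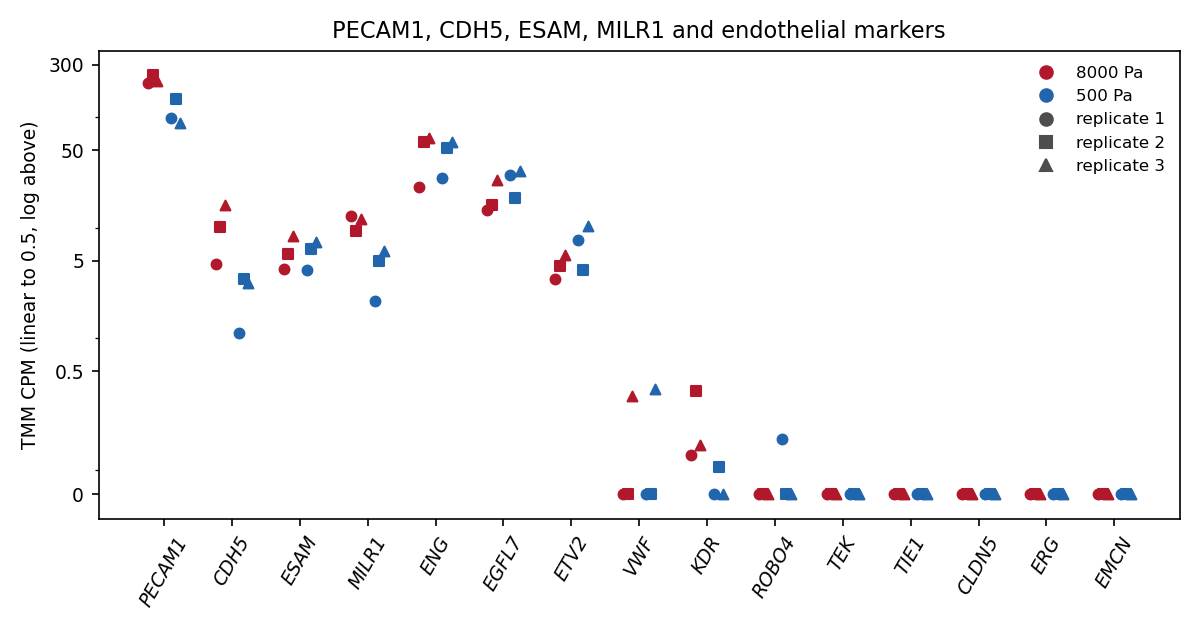
CPM of PECAM1, CDH5, ESAM, MILR1 and endothelial markers in each library, 8000 Pa to the left of 500 Pa for each gene. The axis is linear up to 0.5 CPM and logarithmic above. Every library has PECAM1 above 89 CPM, while TEK, TIE1, CLDN5, ERG and EMCN are at 0 in all 6.

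The nearest tested coding gene on each side of every member was looked at as well, a set chosen by position after its values were seen. Of the 16 neighbours outside the 9, 1 was called with the replicate block, against 0.53% of all tested genes. For 3 of the 16 every 8000 Pa library was above every 500 Pa library, against 4.02% of tested genes. For 0 it was below, against 2.85%. Nothing is read from these counts, and adjusted p-values of a neighbour are a description. The called neighbour was MILR1, an inhibitory immunoglobulin-type receptor of mast cells, which starts 35260 bases beyond PECAM1 on chromosome 17 (64449037 to 64468643). MILR1 had 12.7, 9.29 and 12.1 CPM at 8000 Pa, against 2.18, 5.02 and 6.14 CPM at 500 Pa.

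Every stiff library of MILR1 was above every soft one, and its log2 fold change was 1.38 (SE 0.43; adjusted p = 1 by edgeR) with stiffness alone. With the block it was 1.46 (SE 0.36; adjusted p = 0.0156 by edgeR), and it rose in 3 of 3 pairs. It passed without replicate 2 (adjusted p = 0.0381 by edgeR). It did not pass with a GC offset (adjusted p = 0.0505), in paired DESeq2 (adjusted p = 0.128), without replicate 3 (adjusted p = 0.134) or without replicate 1 (log2 fold change 0.95, adjusted p = 0.553). TEX2, on the other side of PECAM1, had 96.5 against 73.8 CPM on average and overlapped between gels. TK2, beyond CDH5, had 27.9 against 24.9 CPM, and TANGO6, beyond CDH1, had 20.7, 26.9 and 25.5 CPM at 8000 Pa, against 19.0, 20.3 and 14.3 CPM at 500 Pa, neither called.

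Among the catenins, CTNNA1 (alpha-catenin, the link to actin) was the most abundant of the 9 genes. Its levels were 914, 855 and 793 CPM at 8000 Pa, against 684, 814 and 624 CPM at 500 Pa. Replicate 2 of the soft gels reached into the range of the stiff ones, and the log2 fold change was 0.27 (SE 0.24). The exons of LRRTM2 cover 5.04% of its exon bases on the other strand, and LRRTM2 was listed at 0 in every library.

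CTNNB1 (beta-catenin) was the least even of the catenins. It stood at 299, 400 and 226 CPM at 8000 Pa, against 201, 544 and 131 CPM at 500 Pa. Replicate 2 was the highest and replicate 3 the lowest on both gels, and the soft gels held both extremes. The log2 fold change was 0.08 (SE 0.43) with stiffness alone, 0.31 (SE 0.24) with the block and 0.89 (SE 0.33) without 500 Pa replicate 2. The pairs gave 0.570, -0.444 and 0.787. The standard deviation of its log2 level over the 6 libraries was at the percentile 93.6 of all tested genes, against 9.32 for CTNNA1, 82.5 for PECAM1 and 99.8 for CDH5.

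CTNND1 (p120-catenin, which keeps cadherins at the cell surface) had only 97, 51 and 41 counts at 8000 Pa, against 103, 58 and 28 at 500 Pa, or 7.74, 5.38 and 4.08 CPM against 5.75, 6.48 and 3.996 CPM. The gels overlapped, with a log2 fold change of 0.08 (SE 0.41). Its level is uncertain. The tables also list the readthrough gene TMX2-CTNND1, at 0 in all 6 libraries, whose span in RefSeq (GRCh38.p14, chromosome 11, 57712523 to 57819180) holds 99.4% of that of CTNND1, introns included. By exons in GENCODE 29, TMX2-CTNND1 covers 3.65% of the exon bases of CTNND1, and AP001931.1, which is not in the tables, 3.28%. The annotation used for counting is not given, and the exons of these genes in RefSeq were not compared. How reads shared by both genes were handled is not given in the sources used here. TMX2, whose span lies wholly within the readthrough gene's, averaged 301 ± 47.4 CPM at 8000 Pa and 335 ± 82.0 CPM at 500 Pa (SD, n = 3 each). The part of the readthrough gene in the low count was not tested.

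To compare genes with each other, CPM was divided by the length of their exons in kb. CTNNA1 led with 96.7 ± 6.87 at 8000 Pa and 80.1 ± 11 at 500 Pa, then CDH3 with 63.4 ± 22.6 and 67.5 ± 19.9 and CDH1 with 65.8 ± 3.11 and 48.4 ± 10.9 CPM per kb on the same gels (SD, n = 3 each). CDH3 was above CDH1 in 3 of 6 libraries, so their order is not settled. CTNNB1 followed with 25.8 ± 7.34 at 8000 Pa and 24.5 ± 18.5 at 500 Pa, and PECAM1 with 28.2 ± 2.54 and 14.3 ± 3.91 CPM per kb. With all exons as the length, CTNNB1 was above PECAM1 in 3 of 6 libraries.

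By this length PECAM1 was within the range of beta-catenin. Its ranges did not overlap those of ESAM, the next gene down, at 2.1 ± 0.715 and 2.05 ± 0.576 CPM per kb. CDH5 (1.70 ± 0.939 and 0.423 ± 0.209), CDH2 (0.752 ± 0.191 and 0.793 ± 0.282) and CTNND1 (0.652 ± 0.211 and 0.615 ± 0.145 CPM per kb) closed the order, with overlapping ranges. The place of CTNND1 is as uncertain as its count. With the longest transcript as the length the order of the 9 was the same. But CTNNA1 then had 204 and CTNNB1 61.4 CPM per kb over all libraries, in place of 88.4 and 25.2. By that length CTNNB1 was above PECAM1 in every library. CTNNB1 had 63.0 ± 17.9 at 8000 Pa and 59.7 ± 45.2 at 500 Pa, and PECAM1 32.0 ± 2.88 and 16.2 ± 4.44 (SD, n = 3 each). Their closeness thus depends on the length used.

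**Figure D4:**
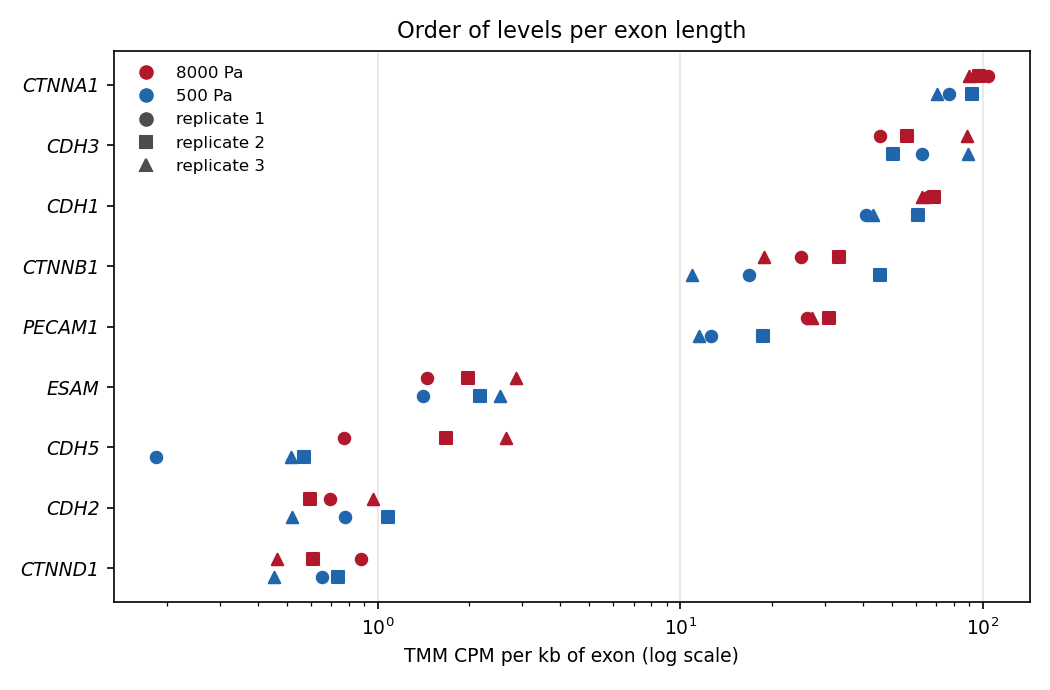
TMM CPM per kb of exon for the 9 genes in order of their mean, on a log axis, with 1 point per library (8000 Pa above 500 Pa in each row). CTNNA1, CDH3, CDH1, CTNNB1 and PECAM1 lie above 10 CPM per kb in every library, and the other 4 lie below 3. The level of CTNND1 is uncertain: how reads shared with a readthrough gene were counted is not given, and their part was not tested.

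Ratios of 2 genes within a library do not depend on library scaling. PECAM1 per length was 0.400, 0.450 and 0.434 of CDH1 at 8000 Pa, against 0.308, 0.308 and 0.264 at 500 Pa. The 8000 Pa values of this ratio were all above the 500 Pa values, a description only, since PECAM1 was chosen for its own difference between gels. CDH3 over CDH1 was 0.694, 0.809 and 1.41 at 8000 Pa, against 1.53, 0.826 and 2.06 at 500 Pa. CTNNA1 over CDH1 was steadier, at 1.47 ± 0.0948 and 1.68 ± 0.195, and CTNNB1 over CDH1 was 0.390 ± 0.0926 and 0.471 ± 0.253 (SD, n = 3 each), and in both ratios the gels overlapped.

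Of the squared deviations of log2(CPM + 0.5) over the 6 libraries, stiffness took 83.0% for PECAM1, 65.8% for CDH5, 61.5% for CDH1 and 54.6% for CTNNA1. The replicate number took 97.1% for ESAM, 86.1% for CDH3, 81.1% for CTNND1 and 78.9% for CTNNB1. CDH2 had 95.2% left over. Over all tested genes the median share was 11% for stiffness and 58.6% for the replicate number. The shares of PECAM1 and CDH5 restate the difference for which they were chosen. These shares describe 6 libraries, and what the replicate numbers have in common (day, passage or gel lot) is not in the labels.

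Between members, CDH1 and CTNNA1 were most alike. Their mean-centred log2 levels differed by 0.143 (root mean square over 6 libraries). CTNNA1 and CTNND1 differed by 0.239, CDH3 and ESAM by 0.275 and CDH1 and PECAM1 by 0.286. CDH5 and PECAM1 differed by 0.712, though both rose in 3 of 3 pairs. The measure is not scaled for spread, which was low for CTNNA1 and high for CDH5 (percentiles 9.32 and 99.8 of tested genes). Genes of low spread thus come out more alike.

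**Figure D5:**
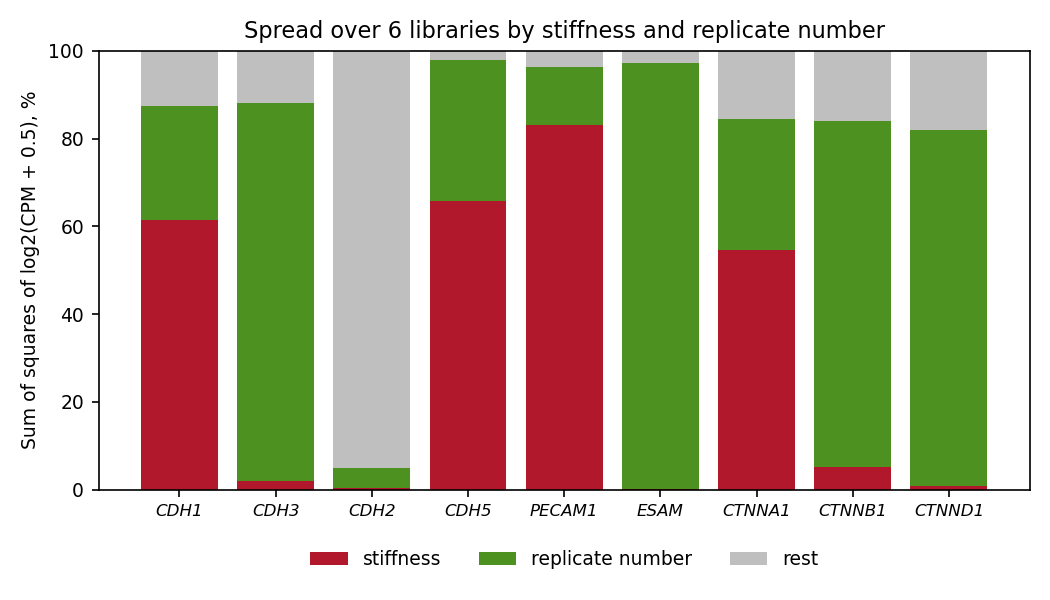
Share of the sum of squares of log2(CPM + 0.5) over the 6 libraries that goes with stiffness, with replicate number and with neither, for each gene. Stiffness holds over 54% for PECAM1, CDH5, CDH1 and CTNNA1, and the replicate number holds over 78% for ESAM, CDH3, CTNND1 and CTNNB1.

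The same likeness was computed for all 8703 other tested genes of at least 5 CPM. Stiffness took 83.0% of the squared deviations of PECAM1 and 61.5% of those of CDH1. Genes picked for nearness to them therefore repeat their difference between gels, and nothing is read from it. How near the closest of so many genes would come without any link was not tested. Nearest to PECAM1 were CHST15, a chondroitin sulfate sulfotransferase (21.2 against 11.5 CPM at 8000 and 500 Pa; root mean square difference 0.123), CBL, a ubiquitin ligase of receptor tyrosine kinases (16.0 against 8.64 CPM; 0.136), SRGAP2 (19.3 against 11.6 CPM; 0.160), B4GALT5 (66.0 against 39.3 CPM; 0.184) and CIT, a kinase of cytokinesis (54.5 against 29.9 CPM; 0.185). Nearest to CDH1 were BCL2L13 (63.7 against 48.0 CPM; 0.0394), SEC24D, of the COPII coat (9.20 against 7.15 CPM; 0.0642), OSBP (14.97 against 12.05 CPM; 0.0725), GPATCH8 (31.4 against 22.7 CPM; 0.0754) and MTMR4 (38.3 against 29.7 CPM; 0.0755).

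The other genes of the pathway were taken from 10 lists of 280 genes, of which 152 could be tested. With stiffness alone 0 of the 152 passed in edgeR, with 4 at an unadjusted p under 0.05, and 0 in DESeq2. With the block 3 passed (1.97%, against 0.53% of all tested genes), 2 higher and 1 lower. FN1 and TAGLN, the 2 called among mesenchymal markers, were known as called when the lists were written. The third was GRHL3, an epithelial grainyhead factor, in the list of CDH1 regulators.

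GRHL3 rose in the paired fit to 14.0 CPM on average at 8000 Pa, against 5.65 CPM at 500 Pa with no overlap between gels. Its paired log2 fold change was 1.39 (SE 0.33), higher in 3 of 3 pairs, and edgeR gave it an adjusted p of 0.0107 (0.0324 in paired DESeq2). It did not pass with stiffness alone (adjusted p = 1), nor in the paired fit without replicate 1 (adjusted p = 0.115), replicate 2 (0.0751) or replicate 3 (0.181). The other 18 tested regulators did not pass. ELF3, an epithelial ETS factor, had 786 ± 241 CPM at 8000 Pa and 992 ± 330 CPM at 500 Pa, EHF 190.3 ± 114 and 175 ± 19.6 CPM and GRHL1 57.2 ± 28.4 and 47.9 ± 16.0 CPM (SD, n = 3 each).

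Of 31 partners of the adherens junction 26 were tested and 0 were called in either fit, against 0.53% of all tested genes with the block. At that share lists of this size hold few calls or none, so nothing is read from 0 here or in the next lists. The median log2 fold change was 0.20 against 0.01 over all tested genes, and 16 of 26 were above 0, against 5901 of 11517. ACTN4, which crosslinks actin, had 812 ± 296 CPM at 8000 Pa and 864 ± 213 CPM at 500 Pa. JUP (plakoglobin, a close relative of beta-catenin) had 693 ± 262 and 926 ± 234 CPM, and VCL (vinculin, which binds stretched alpha-catenin) had 239.9 ± 20 and 218 ± 55.1 CPM (SD, n = 3 each). All 3 overlapped between gels.

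Of 48 other cadherins 21 had 0 counts throughout and 12 were tested. Of these 0 were called, against 0.53% of all tested genes with the block, and the median was 0.15. The most abundant were FAT1, a giant protocadherin-like protein (116 ± 26.8 at 8000 Pa and 111 ± 32.5 CPM at 500 Pa), CLSTN1 (66.1 ± 25.9 and 68.1 ± 10.6 CPM) and PCDH1 (52.9 ± 19.5 and 77.8 ± 37.5 CPM; SD, n = 3 each). CDH11, the nearest tested gene below CDH5 on chromosome 16, was at 1.44 and 0.866 CPM on average.

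Of 36 genes of beta-catenin turnover and transcription 28 were tested, with 0 called, against 0.53% of all tested genes with the block. The median was -0.01 and 14 of 28 were above 0, against 5901 of 11517 tested genes. CSNK1A1, the kinase that primes beta-catenin for destruction, had 213 ± 78.6 CPM at 8000 Pa and 199 ± 39.8 CPM at 500 Pa, CTNNBL1 121 ± 5.94 and 123 ± 10.3 CPM and CSNK1D 112.5 ± 28.8 and 127 ± 14.7 CPM (SD, n = 3 each).

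Of 36 other immunoglobulin-type adhesion molecules 27 were tested, with 0 called, against 0.53% of all tested genes with the block. Their median was 0.19. BSG (basigin) had 987 ± 332 CPM at 8000 Pa and 1434 ± 265 CPM at 500 Pa, CEACAM1 576 ± 32.6 and 472 ± 169 CPM and CEACAM6 569.9 ± 228 and 462 ± 193 CPM (SD, n = 3 each). Of 21 signalling partners of PECAM1 16 were tested, with 0 called, against the same 0.53%, and a median of 0.09. STAT3 had 510.4 ± 64.0 and 449 ± 40.6 CPM, SHC1 131.5 ± 35.9 and 127.5 ± 25.3 CPM and GRB2 97.4 ± 30.1 and 84.5 ± 34.0 CPM on the same gels.

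Of 15 epithelial identity genes 13 were tested, with 0 called, against 0.53% of all tested genes with the block. The median was -0.24 and 3 of 13 were above 0, against 5901 of 11517 tested genes. CLDN4, a tight junction claudin, had 1157 ± 476 CPM at 8000 Pa and 1362 ± 668 CPM at 500 Pa, and EPCAM had 252 ± 88.7 and 220.1 ± 85.7 CPM (SD, n = 3 each). Of 14 mesenchymal genes 6 were tested. FN1 (fibronectin) rose in the paired fit, with 90.6 ± 45.8 CPM at 8000 Pa and 36.0 ± 20.2 CPM at 500 Pa (adjusted p = 2.29e-05 by edgeR), but did not pass with stiffness alone (adjusted p = 1) or in the paired fit without replicate 3 (0.12). TAGLN (transgelin, an actin-binding protein) fell, with 10.5 ± 4.24 and 34.6 ± 21.9 CPM in the same fit (adjusted p = 2.2e-05 by edgeR), and did not pass with stiffness alone (adjusted p = 1) or paired without replicate 3 (0.329). S100A4 was not called, at 1017 ± 361 and 1084 ± 326 CPM (SD, n = 3 each).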

How the data were processed

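RNA sequencing libraries of MCF10CA1a cells on gels of 8000 Pa and 500 Pa, 3 each, were compared. The authors deposited raw counts per gene symbol and TMM-scaled log2 values per the file headers. HISAT2 2.1.2 and HTSeq 0.11.4 on GRCh38 are named in the submitters' processing notes, with limma and DESeq2. Neither strand setting nor annotation release is given in these sources. The authors' log2 values, given for 7 of the 9 members, differed from those computed here by at most 0.0981.

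Genes were kept by filterByExpr (minimum count 10, minimum total 15) and tested with edgeR 4.0.16 (R 4.3.3) by TMM and the quasi-likelihood test, with p-values adjusted by Benjamini-Hochberg over 11517 genes at 0.05, with stiffness alone. The alternatives were a replicate block, DESeq2 1.42.0, other scalings, no filter, a GC offset and left-out libraries. SE is the fold change over the square root of F. Same-numbered libraries deviated together from their group means (correlations 0.409, 0.184 and 0.516 across genes). Every same-numbered pair was above 0.1, the rule used to treat the numbers as pairs. But no shared day is stated, and 8000 Pa replicate 1 with 500 Pa replicate 2 reached 0.199. A chi-square of counts per degree of freedom put 500 Pa replicate 1 further from 8000 Pa replicate 1 (93) than from replicates 2 (43.8) and 3 (36.8). By it 500 Pa replicates 2 and 3 were nearest to the 8000 Pa libraries of their own number (11 and 27.4). All results with the block rest on this pairing.

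Members and lists were chosen with earlier results of these data known. Beside the members, the 3 most abundant and all called genes of each list are named, with position neighbours and likeness as described. EPCAM, TJP1, OCLN, CLDN3, PVRL3, PROX1 and the neighbours were chosen after their values were seen. Lengths and coordinates are from GENCODE 29. The steps were run on simulated data with the same dispersion for every gene and no effect of replicate number. That simulation does not show how the fits with and without the block behave with the replicate spread seen here.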

Additional observations from a re-analysis of the deposited data

How the results depend on the processing

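PECAM1, CDH5, CDH1 and CTNNA1 kept a fold change above 0 in all 18 alternatives to the stiffness-only fit. Each was higher at 8000 Pa in 3 of 3 pairs, and PECAM1 and CDH5 were chosen for this difference. The alternatives use the same 6 libraries, so this is a description and gives no support. Where a value moved by more than the replicate spread, the cause was not tested: CTNNA1 was 0.43 with library size alone in place of 0.27, CDH2 ranged from -0.45 to 0.33 over left-out libraries and CTNNB1 from -0.22 to 0.89. The replicate block called 61 genes in place of 0, and 65 with a GC offset, 78 with DESeq2 size factors and 80 without the filter. Paired DESeq2 called 42, unpaired DESeq2 7 and the unpaired fit without the filter 8. With left-out libraries the count ran from 0 to 81: unpaired 0 or 1, and with the block 38 without replicate 1, 81 without replicate 2 and 12 without replicate 3. Of the pathway lists 3 genes were called with the block, with its GC offset, with its DESeq2 size factors and in paired DESeq2, 4 with the block and no filter, 1 unpaired without the filter, and 0 to 4 with left-out libraries (2, 4 and 0 with the block without replicates 1, 2 and 3). The block changed no other call among the genes named here than those of PECAM1, CDH5, MILR1, GRHL3, FN1, TAGLN and CIT, which was picked for its likeness to PECAM1. With the longest transcript as length, CDH1 had 72.2, CTNNA1 204, CTNNB1 61.4 and CTNND1 0.85 CPM per kb. At 20 to 162 counts per library, CDH5 and CTNND1 carry more counting error than PECAM1.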

Other observations

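Some junction genes had few counts. TJP1, the scaffold ZO-1 of tight and adherens junctions, had 4, 8 and 2 counts at 8000 Pa, against 5, 4 and 0 at 500 Pa. OCLN (occludin) had 2, 2 and 1 counts, against 3, 3 and 2, and the nectin PVRL3 had 10 counts over the 6 libraries. How reads shared between genes were counted is not given, and whether these low counts are low levels was not tested. In the same libraries CLDN4 averaged 1157 CPM at 8000 Pa and 1362 CPM at 500 Pa.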
